A study of Mus musculus with 40 samples.

Results

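H2A.Z is a variant of histone H2A that is exchanged into and out of nucleosomes after DNA replication has ended, and neurons, which no longer divide, depend on this exchange. SRCAP and the EP400-TIP60 complex are ATP-driven machines that swap H2A for H2A.Z, TIP60 also acetylates histone tails, the chaperone ANP32E takes H2A.Z out of nucleosomes, and readers such as PWWP2A and BRD2 bind chromatin that carries it. The genes described here are 10 members of this machinery, chosen by symbol: Srcap, Vps72 and Znhit1 for the SRCAP complex, Ep400 and Kat5 for EP400-TIP60, Ruvbl1 and Ruvbl2 for the ATPases found in both, the chaperone gene Anp32e, and the reader genes Pwwp2a and Brd2. All 10 had a row among the 40853 genes of the count table and all 10 passed the filter on low counts, as did 28449 genes in total.

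RNA was sequenced from the hippocampus of 40 mice, 18 females and 22 males, each injected there with adeno-associated virus. In both sexes there were 5 virus groups. H2A.Z.1 KA mice (4 females, 4 males) had H2A.Z.1 and H2A.Z.2 deleted and received Myc-tagged H2A.Z.1 whose tail lysines were changed to alanine, which cannot be acetylated. H2A.Z.1 KQ mice (3 females, 5 males) received the version with glutamine, which resembles acetylated lysine, on the same deletion. H2A.Z.1 WT mice (4 females, 5 males) received unmodified H2A.Z.1 on the same deletion. H2A.Z KO mice (4 females, 4 males), which the labels call H2A.Z.1/H2A.Z.2 KD, had the deletion without replacement. Myc mice (3 females, 4 males) received only the tag and are labelled WT by genotype, whereas the study's methods describe a colony floxed for both genes. Cre virus went to every group except Myc, so Cre exposure and the deletion cannot be told apart in comparisons with Myc. Cre was driven by the neuronal synapsin promoter and the replacements by the CMV promoter. The deletion was thus restricted to transduced neurons, while RNA came from the whole tissue. Neither the labels nor the methods used here give the age of the mice.

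Total counts lay between 24342921 and 45982772 per mouse, with a median of 36417112. In these bulk counts the targeted genes were not detectably lower in the libraries labelled as the deletion. The study reported that mRNA of both genes fell with Cre alone, to a small degree in bulk tissue. In cultured hippocampal neurons it reported that Cre strongly reduced H2A.Z. H2az1, which encodes H2A.Z.1, had 28.1, 29.2, 30.3 and 36.3 CPM (counts scaled to a common library size by TMM) in H2A.Z KO females, against 34.5, 34.1 and 28.1 CPM in Myc females. Males had 37.6, 37.0, 33.9 and 17.7 CPM of it in H2A.Z KO, against 32.3, 37.2, 34.9 and 27.0 CPM in Myc. Its log2 fold change, deletion over Myc, was -0.06 for females and -0.05 for males (adjusted p = 0.828 and 0.841). H2az2, which encodes H2A.Z.2, had 28.3, 30.0, 26.2 and 28.0 CPM in H2A.Z KO females, against 24.2, 26.0 and 19.4 CPM in Myc females. At H2az2 every H2A.Z KO female lay above the Myc females, as for 18.8% of all genes. Male levels of H2az2 were 28.7, 29.3, 23.3 and 20.8 CPM in H2A.Z KO, against 22.3, 26.5, 23.5 and 20.6 CPM in Myc, which overlapped. H2az2 stood at 0.28 for females and 0.14 for males on the log2 scale (adjusted p = 0.0609 and 0.350), and H2A.Z KO below always means the libraries labelled as the deletion. Cell type markers did differ between these libraries. Of 10 neuronal markers, 9 fell in females and 8 in males. The 12 microglia and macrophage markers and the 10 T and NK cell markers rose in both sexes. In bulk tissue, fewer cells of a type and less RNA per cell cannot be told apart.

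The promoters of 3 members that moved in the same direction in both sexes are shown, the fallers Kat5 and Ruvbl1 and the riser Anp32e, each from 250 bases before to 50 bases after a transcription start given by RefSeq. The sequences come from a RefSeq table of build GRCm38.p6 and were placed in GRCm39 by exact match, and capitals mark matches to the motifs named below.
Kat5 (chr19:5660073-5660372, minus strand): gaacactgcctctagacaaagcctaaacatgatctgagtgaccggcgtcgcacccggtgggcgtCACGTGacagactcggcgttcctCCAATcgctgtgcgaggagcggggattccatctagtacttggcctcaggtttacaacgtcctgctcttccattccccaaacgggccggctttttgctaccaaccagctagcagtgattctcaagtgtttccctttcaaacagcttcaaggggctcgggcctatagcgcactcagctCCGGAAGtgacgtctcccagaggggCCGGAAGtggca
Ruvbl1 (chr6:88442141-88442440, plus strand): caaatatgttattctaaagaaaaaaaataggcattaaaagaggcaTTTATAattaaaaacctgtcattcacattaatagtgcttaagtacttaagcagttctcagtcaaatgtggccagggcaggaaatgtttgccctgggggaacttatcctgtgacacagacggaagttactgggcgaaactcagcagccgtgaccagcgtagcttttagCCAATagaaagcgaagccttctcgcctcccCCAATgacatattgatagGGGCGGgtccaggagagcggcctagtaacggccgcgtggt
Anp32e (chr3:95836319-95836618, plus strand): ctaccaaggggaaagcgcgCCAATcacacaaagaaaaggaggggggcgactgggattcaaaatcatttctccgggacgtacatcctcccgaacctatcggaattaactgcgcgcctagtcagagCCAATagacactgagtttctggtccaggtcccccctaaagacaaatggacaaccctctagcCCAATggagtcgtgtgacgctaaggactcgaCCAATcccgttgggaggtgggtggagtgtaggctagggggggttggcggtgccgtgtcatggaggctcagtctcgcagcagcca
The RefSeq start behind the Kat5 window lay 143 bases from the start of its canonical GENCODE transcript, against 0 bases for Ruvbl1 and 12 bases for Anp32e. Among members counted below but not printed, this distance was 748 bases for Brd2, which also rose in both sexes, and 176 bases for Ruvbl2. A CCAAT box (CCAAT) was matched 4 times in Anp32e, 2 times in Ruvbl1 and 1 time in Kat5. Kat5 also held 2 ETS motifs (CCGGAAG) and 1 E-box (CACGTG), and Ruvbl1 held 1 GC box (GGGCGG). Ruvbl1 also held 1 match to the letters of a TATA box (TATAAA), on the reverse strand and toward the upstream end of the window. Among all 32851 promoters of the table, 37.4% held a CCAAT box, 8.86% an ETS motif, 7.15% an E-box, 35.7% a GC box and 13.6% a TATA box, with both strands read. Of the 9 members in the table, 5 held a CCAAT box, the other two being Ruvbl2 and Pwwp2a, and 6 held a GC box. None of these 5 motifs contains another. Their GC content was between 45.7% in Ruvbl1 and 71.0% in Ep400, against a median of 52.7% over all promoters.

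Levels of the 10 genes were compared with each other per kilobase of merged protein-coding exons. The order depends on this length, which for Znhit1 was 1860 bases, against 766 bases in its canonical transcript. In H2A.Z KO males and Myc males, Anp32e stood highest, with 55.7 ± 1.40 and 47.1 ± 2.26 CPM per kilobase (SD, n = 4 each). Brd2 followed with 39.8 ± 2.87 and 31.9 ± 1.21 CPM per kilobase, and Kat5 with 18.7 ± 0.66 and 22.9 ± 1.34 CPM per kilobase. The lowest was Ep400, with 5.21 ± 0.40 and 5.04 ± 0.29 CPM per kilobase. The neighbours Vps72 (15.0 ± 1.07 and 17.3 ± 1.03 CPM per kilobase) and Znhit1 (16.0 ± 1.40 and 16.2 ± 1.72 CPM per kilobase) lay within their spread of each other, as did Ruvbl2 (6.25 ± 1.26 and 5.77 ± 0.56 CPM per kilobase) and Ep400. In Myc mice the sexes could not be separated at any member: 0 of 10 passed the test for females over males in edgeR, where 0.0457% of all genes were called, 0 had an unadjusted p under 0.05, and 0 were called by DESeq2.

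**Figure D1:**
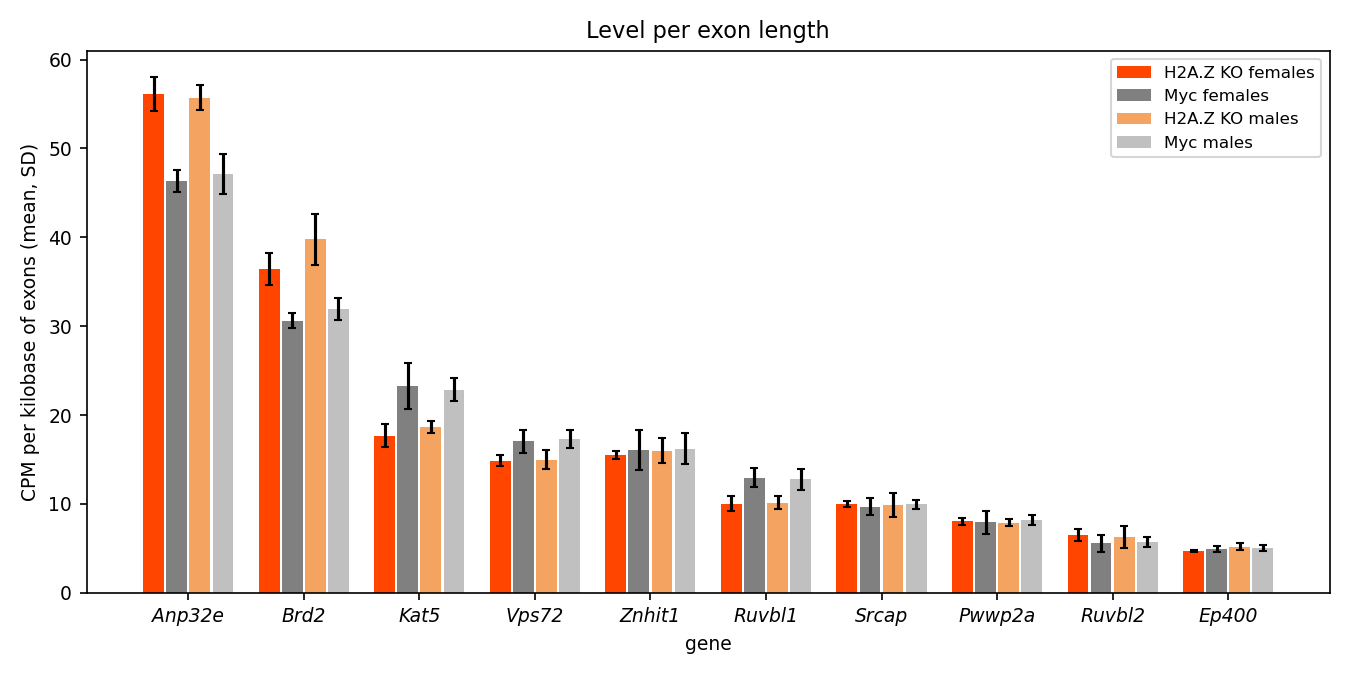
Mean CPM per kilobase of merged exons (vertical axis; bars with SD over 3 or 4 mice) for the 10 genes (horizontal axis), in H2A.Z KO and Myc females and males. Anp32e and Brd2 stand above the other 8 genes in all 4 groups, and Kat5 and Ruvbl1 have shorter bars in H2A.Z KO than in Myc.

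Deletion of H2A.Z was compared with the Myc control first, to ask whether the machinery that moves H2A.Z changes when the histone is removed. Kat5 and Ruvbl1 fell and Anp32e and Brd2 rose in both sexes, while Srcap, Znhit1, Ep400, Ruvbl2 and Pwwp2a did not pass the test in either sex. In females 2 of the 10 genes were called higher and 2 lower, where 18.1% of all genes tested were called higher and 16.5% lower. In males 2 were called higher and 3 lower, where 17.2% of all genes were called higher and 14.4% lower. These shares of the members are close to those of all genes. The median log2 fold change of the members was -0.02 in females and -0.01 in males, against 0.00 and 0.03 over all genes.

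Kat5, the acetyltransferase of the TIP60 complex, showed the largest fall among the members in females. It had 38.7, 41.7, 40.9 and 46.0 CPM in H2A.Z KO females, against 52.3, 62.2 and 50.9 CPM in Myc females. Kat5 in males stood at 45.4, 42.0, 44.3 and 45.1 CPM in H2A.Z KO, against 53.0, 58.7, 51.5 and 53.2 CPM in Myc. Every H2A.Z KO mouse thus lay below every Myc mouse of its sex, as did 16.4% of all genes in females and 13.2% in males. In log2 units Kat5 changed by -0.40 for females (SE 0.07, adjusted p = 2.5e-05) and -0.29 for males (SE 0.06, adjusted p = 0.000524), and Kat5 stayed past the threshold without any 1 mouse. In GENCODE, Kat5 (chr19, minus strand) shares 653 exonic bases, 27.6% of its exons, with Rnaseh2c on the opposite strand. For Rnaseh2c the log2 fold change was -0.25 for females and -0.12 for males (adjusted p = 0.253 and 0.589), and whether counting used strand is not stated. Ep400, the ATPase of the same complex, averaged 62.0 ± 1.62 CPM in H2A.Z KO females and 64.9 ± 4.70 CPM in Myc females (SD, n = 4 and 3), and 69.0 ± 5.24 CPM in H2A.Z KO males and 66.7 ± 3.83 CPM in Myc males (SD, n = 4 each). Its log2 fold change was -0.07 (95% interval -0.21 to 0.07) in females and 0.05 (-0.08 to 0.18) in males.

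Ruvbl1 and Ruvbl2 encode AAA+ ATPases that form a joint ring within SRCAP, TIP60 and INO80, and of this pair only Ruvbl1 was called. It had 17.0, 19.2, 19.5 and 20.6 CPM in H2A.Z KO females, against 24.9, 26.5 and 22.5 CPM in Myc females. The males held 19.8, 18.5, 21.1 and 17.9 CPM in H2A.Z KO, against 21.0, 26.2, 25.3 and 24.6 CPM in Myc. The H2A.Z KO females lay wholly below the Myc females, as for 16.4% of all genes. In males, mouse 1 of the Myc group lay just under the highest H2A.Z KO mouse. On the log2 scale Ruvbl1 changed by -0.37 (SE 0.09, adjusted p = 0.00142) for females, and for males by -0.33 (SE 0.08, adjusted p = 0.00219), past the threshold without any 1 mouse. Ruvbl2 averaged 24.3 ± 2.56 CPM in H2A.Z KO females and 20.8 ± 3.44 CPM in Myc females (SD, n = 4 and 3), and 23.3 ± 4.69 CPM in H2A.Z KO males and 21.5 ± 2.10 CPM in Myc males (SD, n = 4 each), and the groups overlapped in both sexes. Its log2 fold change was 0.23 (95% interval -0.02 to 0.48, adjusted p = 0.148) in females and 0.12 (-0.11 to 0.35, adjusted p = 0.471) in males, and without Myc mouse 31 the female value passed the threshold at 0.36 (adjusted p = 0.0413). Ruvbl2 shares 16.7% of its exonic bases with Lhb and 11.2% with Gys1, both on the opposite strand, where Lhb averaged 1.04 CPM in H2A.Z KO females and 0.169 CPM in Myc females, and 0.272 CPM in H2A.Z KO males and 0.335 CPM in Myc males. The difference between the responses of Ruvbl1 and Ruvbl2 was not tested.

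Of the SRCAP genes, Vps72, whose product binds the H2A.Z-H2B dimer, was lower in H2A.Z KO libraries, and its call depended on single mice and on the fit. It had 20.9, 22.8, 22.8 and 22.3 CPM in H2A.Z KO females, against 23.3, 26.6 and 26.4 CPM in Myc females. Among males Vps72 had 23.0, 20.1, 23.9 and 22.2 CPM in H2A.Z KO, against 26.4, 26.0, 23.7 and 27.2 CPM in Myc. In females the H2A.Z KO mice lay wholly below Myc, as for 16.4% of all genes, and the male groups overlapped at 1 Myc mouse. Its log2 fold change was -0.19 for females (SE 0.08, adjusted p = 0.0732) and -0.21 for males (SE 0.08, adjusted p = 0.0356). The male call was lost without H2A.Z KO mouse 4 (adjusted p = 0.150) or 42 (0.0547) and without Myc mouse 1 (0.0762), 22 (0.0651) or 41 (0.102), and also with DESeq2 size factors (0.0554) and in a fit on the compared groups alone (0.159). The female value passed the threshold without Myc mouse 11 (adjusted p = 0.0387) and with filtering by expression (0.0442).

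Srcap, the ATPase that names the complex, averaged 149 ± 5.38 CPM in H2A.Z KO females and 144 ± 14.1 CPM in Myc females (SD, n = 4 and 3), and 147 ± 20.0 CPM in H2A.Z KO males and 148 ± 7.46 CPM in Myc males (SD, n = 4 each). Its log2 fold change was 0.05 (95% interval -0.12 to 0.22) in females and -0.01 (-0.16 to 0.15) in males. Znhit1, a zinc-finger subunit, averaged 28.8 ± 0.88 CPM in H2A.Z KO females and 29.9 ± 4.24 CPM in Myc females (SD, n = 4 and 3), and its log2 fold change was -0.06 (95% interval -0.26 to 0.15) in females and -0.02 (-0.21 to 0.16) in males. Both genes overlapped between groups in both sexes, and at Srcap and Znhit1 a few alternatives turned the sign of a value near 0. Znhit1 shares 30.9% of its exonic bases with Plod3 on the opposite strand, and Plod3 rose by 0.67 for females and 0.64 for males on the log2 scale (adjusted p = 8.43e-06 and 3.33e-06). Srcap shares 65.5% of its exonic bases with an overlapping gene model on the same strand, Gm42715, which has no row in the count table.

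Anp32e, the chaperone that removes H2A.Z, rose in every H2A.Z KO mouse above the Myc mice of its sex. It had 198, 199, 185 and 196 CPM in H2A.Z KO females, against 161.5, 164.5 and 155.9 CPM in Myc females. Male mice had 190.9, 188, 199 and 195 CPM in H2A.Z KO, against 154.9, 172.4, 159.2 and 167.2 CPM in Myc. The groups did not overlap in either sex, as was the case for 18.8% of all genes that were higher in females and 15% in males. Anp32e had log2 fold changes of 0.28 for females (SE 0.06, adjusted p = 0.000724) and 0.24 for males (SE 0.06, adjusted p = 0.00136), and it stayed past the threshold without any 1 mouse and in every other alternative run. No other gene model overlaps the exons of Anp32e.

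Brd2, a bromodomain reader that binds acetylated histones and is found on H2A.Z nucleosomes, rose as well. It had 256.5, 259, 236 and 237 CPM in H2A.Z KO females, against 203, 214 and 206 CPM in Myc females. Male Brd2 levels were 260.0, 247, 281 and 290.1 CPM in H2A.Z KO, against 206, 221, 214 and 224 CPM in Myc. Every H2A.Z KO mouse lay above the Myc mice of its sex, as for 18.8% of all genes in females and 15% in males. In log2 units Brd2 changed by 0.25 for females (SE 0.07, adjusted p = 0.00278) and 0.32 for males (SE 0.06, adjusted p = 7.95e-05), past the threshold without any 1 mouse, although the female call was lost in a fit on the 7 mice of that comparison alone (adjusted p = 0.0578). Brd2 (chr17, minus strand) lies beside H2-DMa, a gene of the MHC class II pathway on the opposite strand, and 510 of its exonic bases, 7.52%, are covered by transcripts of H2-DMa that are not protein-coding, against 0 by its protein-coding transcripts. H2-DMa averaged 43.5 ± 13.8 CPM in H2A.Z KO females and 18.2 ± 1.82 CPM in Myc females (SD, n = 4 and 3), and 67.4 ± 25.3 CPM in H2A.Z KO males and 16.0 ± 1.52 CPM in Myc males (SD, n = 4 each). The mean of Brd2 was 39.5 CPM higher in H2A.Z KO than in Myc in females and 53.2 CPM higher in males. What the shared bases add to the Brd2 count was not tested.

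Pwwp2a, a reader that binds the H2A.Z nucleosome, averaged 58.6 ± 2.58 CPM in H2A.Z KO females and 57.9 ± 9.46 CPM in Myc females (SD, n = 4 and 3), and 57.3 ± 2.89 CPM in H2A.Z KO males and 59.8 ± 3.76 CPM in Myc males (SD, n = 4 each). Its log2 fold change was 0.02 (95% interval -0.21 to 0.24) in females and -0.06 (-0.27 to 0.15) in males. It shares 6.29% of its exonic bases with Ttc1 on the opposite strand.

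**Figure D2:**
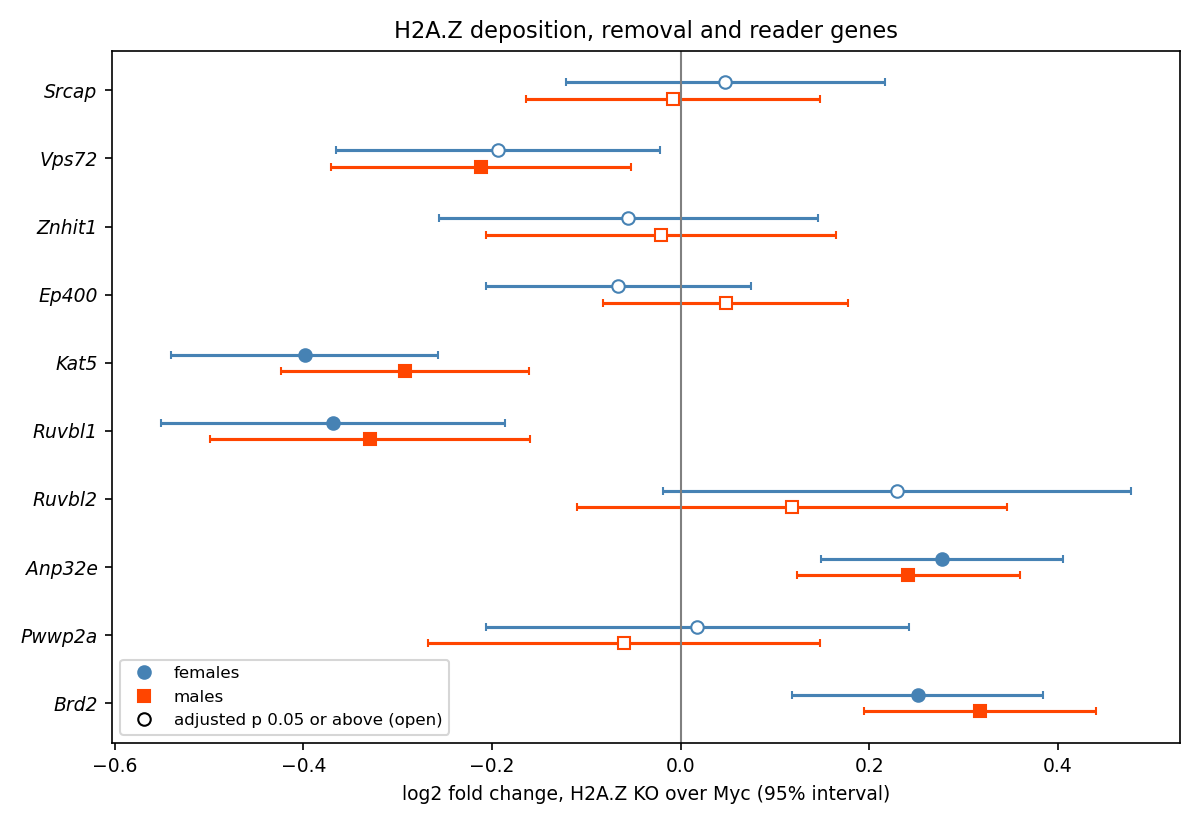
Log2 fold change, H2A.Z KO against Myc (horizontal axis, with 95% intervals) for the 10 genes (vertical axis), in females (circles) and males (squares); filled symbols passed an adjusted p of 0.05. Kat5 and Ruvbl1 lie left of 0 and Anp32e and Brd2 right of 0 in both sexes, and the other 6 genes have at least 1 open symbol.

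The response did not differ detectably between the sexes at any member. For the difference of the log2 fold changes, females minus males, 0 of 10 members were called in edgeR (0% of all genes), 0 had an unadjusted p under 0.05 and 0 were called by DESeq2. The widest difference was at Ep400, -0.11 (95% interval -0.31 to 0.08), followed by Ruvbl2 at 0.11 (-0.22 to 0.45) and Kat5 at -0.11 (-0.30 to 0.09).

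Marker sums moved in the same libraries as these genes. Over 10 neuronal markers the summed level was between 4459 and 7970 CPM in H2A.Z KO females, against 11249 and 11528 CPM in Myc females, and between 5269 and 9082 CPM in H2A.Z KO males, against 11193 and 12294 CPM in Myc males. Over 12 microglia and macrophage markers it was between 1706 and 3007 CPM in H2A.Z KO females, against 354 and 593 CPM in Myc females, and between 1734 and 3461 CPM in H2A.Z KO males, against 358 and 467 CPM in Myc males. No marker of either list was at 0 in all mice of a group. T and NK cell markers summed to between 37.2 and 217 CPM in H2A.Z KO females, against 1.30 and 6.35 CPM in Myc females, and to between 106 and 280 CPM in H2A.Z KO males, against 0.762 and 1.98 CPM in Myc males. Astrocyte markers rose at 7 of 8 genes in both sexes, and markers of dividing cells at 10 of 10 in both. Oligodendrocyte markers rose at 5 of 8 genes in females and 2 of 8 in males. Endothelial markers rose at 5 of 6 genes in females and 2 of 6 in males. Of all genes, 18.1% were called higher in females and 17.2% in males. Choroid plexus markers rose at 7 of 7 genes in females and 0 of 7 in males, and 4 female mice (2 H2A.Z KO, 1 H2A.Z.1 WT and 1 H2A.Z.1 KQ) had over 1000 CPM of Ttr, the choroid plexus transthyretin. Without those 4 mice Kat5, Ruvbl1, Anp32e and Brd2 remained called in H2A.Z KO females. The female choroid plexus count then became 0 of 7 genes called higher. Endothelial markers became 3 of 6, oligodendrocyte markers 3 of 8 and markers of dividing cells 9 of 10. The part of these cell type changes in the values of the members was not tested.

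Other genes of the machinery were examined through 5 lists. Of all genes tested, 18.1% were called higher and 16.5% lower in females, and 17.2% higher and 14.4% lower in males. Of the 4 other SRCAP subunits, 0 were called in females, and in males Actr6 fell by 0.41 on the log2 scale (adjusted p = 0.00117) and Actl6a rose by 0.28 (adjusted p = 0.0353). The female count of 0 comes from edgeR, with log2 fold changes of -0.22 for Actr6 (adjusted p = 0.114) and 0.23 for Actl6a (adjusted p = 0.104). Of the 11 other TIP60 subunits, 0 rose and 4 fell in females, and 1 rose and 2 fell in males. The largest fall was at Actl6b, which is also the neuronal actin-like subunit of BAF complexes, at 56.6 CPM in females with the deletion, against 93.7 CPM in Myc females, and 57.3 CPM in males with the deletion, against 91.3 CPM in Myc males (log2 fold change -0.73 and -0.67, adjusted p = 1.71e-05 and 1.77e-05). Morf4l2, another listed subunit, had log2 fold changes of -0.32 and -0.26 (adjusted p = 0.0013 and 0.00409).

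INO80, a remodeller reported to act on H2A.Z nucleosomes, had 4 of 12 listed genes called lower in females and 3 in males, with none higher. Uchl5, a deubiquitinase, had log2 fold changes of -0.49 and -0.22 (adjusted p = 5.4e-06 and 0.0147), and Actr8, a nuclear actin-related protein, -0.30 and -0.30 (adjusted p = 0.000813 and 0.000269). Of 12 other readers and interactors, 6 fell in females and 7 in males, and 0 rose in either. Of all genes, 16.5% were called lower in females and 14.4% in males. Pwwp2b, the paralog of Pwwp2a, had log2 fold changes of -0.69 and -0.72 (adjusted p = 0.000204 and 3.7e-05), and Brd3, a relative of Brd2, had -0.23 and -0.19 (adjusted p = 0.00325 and 0.00863). The zinc-finger gene Zfp512 stood at -0.65 and -0.52, and Tcf20 at -0.72 and -0.48 (adjusted p = 1.01e-07 and 7.48e-07 for Zfp512, 6.38e-07 and 9.62e-05 for Tcf20). The median log2 fold change of the readers was -0.21 in females and -0.20 in males, against 0.00 and 0.03 over all genes, and that of the INO80 genes was -0.12 and -0.11.

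Of 13 other H2A chaperones and H2A.Z-modifying enzymes, 2 rose in both sexes, and 3 fell in females and 1 in males. Anp32b, of the same family as Anp32e, had log2 fold changes of 0.43 and 0.63 (adjusted p = 0.00457 and 2.03e-05). The acetyltransferase paralogs Kat2a and Kat2b moved in opposite directions: Kat2b rose by 0.85 and 0.74 (adjusted p = 3.52e-05 and 5.88e-05), and Kat2a fell by 0.44 and 0.41 on the log2 scale (adjusted p = 5.63e-05 and 5.07e-05). Without the 4 female mice above 1000 CPM of Ttr, the female counts of genes called lower became 2 for the other TIP60 subunits, 3 for INO80, 5 for the other readers and 1 for the chaperones and enzymes, and 1 SRCAP subunit was called higher.

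Replacement of H2A.Z was compared with the deletion next, to ask which members moved when H2A.Z.1 was supplied again. These comparisons use the same H2A.Z KO libraries as the deletion comparison, so opposite changes here are not independent of it. H2az1 itself had positive log2 fold changes over H2A.Z KO with every replacement in both sexes, between 0.24 and 0.44. None of these passed the threshold (adjusted p between 0.0774 and 0.283). Brd2 was lower and Kat5 higher with H2A.Z.1 WT in both sexes, and with the lysine mutants Brd2 passed in males, while its female value with H2A.Z.1 KQ passed in several alternatives. In fits on the compared groups alone, no call over H2A.Z KO held. With H2A.Z.1 WT, 1 of 10 members was called higher and 1 lower in females, where 5.36% of all genes were higher and 9.17% lower, and 1 higher and 1 lower in males, where 7.44% were higher and 12% lower. With H2A.Z.1 KA, 0 were called in females in edgeR (15.3% of all genes), 0 at an unadjusted p under 0.05 and 0 by DESeq2, and 1 was lower in males (9.94% of all genes). With H2A.Z.1 KQ, 0 were called in females in edgeR (13% of all genes), 1 at an unadjusted p under 0.05 and 1 by DESeq2, and 1 was lower in males (12.7% of all genes). Shares of all genes are given for the edgeR calls only, not for the unadjusted or DESeq2 counts.

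Brd2 had 218, 223, 216 and 213 CPM in H2A.Z.1 WT females, all below the H2A.Z KO females given above, as for 9.44% of all genes. H2A.Z.1 WT males had 232, 230.2, 231, 235 and 226 CPM, again below every H2A.Z KO mouse, as for 10.1% of all genes. Against H2A.Z KO, H2A.Z.1 WT gave a log2 fold change of -0.19 for females (SE 0.06, adjusted p = 0.0334) and -0.22 for males (SE 0.06, adjusted p = 0.0041). The female call was lost without H2A.Z KO mouse 13 (adjusted p = 0.107) or 14 (0.121), without H2A.Z.1 WT mouse 19 (0.0621), 39 (0.0795) or 40 (0.0863), and without the mice above 1000 CPM of Ttr (0.119). Over H2A.Z KO, H2A.Z.1 KA gave -0.11 (adjusted p = 0.234) in females and -0.19 (adjusted p = 0.0293) in males, and H2A.Z.1 KQ gave -0.18 (adjusted p = 0.0673) in females and -0.21 (adjusted p = 0.00692) in males. Every H2A.Z.1 KA mouse lay below the H2A.Z KO mice of its sex, as for 8.77% of all genes in females and 9.7% in males, and so did every H2A.Z.1 KQ female (9.87% of all genes), whereas H2A.Z.1 KQ males overlapped with H2A.Z KO males. The H2A.Z.1 KA call in males was lost without H2A.Z.1 KA mouse 25 (adjusted p = 0.0691) or 26 (0.0931) and without H2A.Z KO mouse 21 (0.0846) or 42 (0.105), and with all genes that had a count (0.0625). The female H2A.Z.1 KQ value passed without H2A.Z KO mouse 33 (adjusted p = 0.0456), with DESeq2 (0.0051), with DESeq2 size factors (0.0445), with filtering by expression (0.0319), without robust estimation (0.0482) and with sample-number ranges as a covariate (0.0458). The neighbour H2-DMa averaged 20.2, 21.3 and 21.9 CPM in H2A.Z.1 WT, KA and KQ females, against 43.5 CPM in H2A.Z KO females. For males these means were 19.7, 24.9 and 21.1 CPM, against 67.4 CPM in H2A.Z KO.

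Kat5 had 50.8, 46.7, 46.1 and 50.1 CPM in H2A.Z.1 WT females and 47.5, 51.5, 48.6, 49.3 and 52.7 CPM in H2A.Z.1 WT males. Each of these mice lay above the H2A.Z KO mice of its sex, as for 7.52% of all genes in females and 6.28% in males. Kat5 had a log2 fold change of 0.21 for females (SE 0.06, adjusted p = 0.0216) and 0.18 for males (SE 0.06, adjusted p = 0.0393). The female call was lost without H2A.Z KO mouse 13 (adjusted p = 0.111) or 14 (0.0537), without H2A.Z.1 WT mouse 19 (0.0737) or 40 (0.0676), and without the mice above 1000 CPM of Ttr (0.122). The male call was lost without H2A.Z KO mouse 4 (adjusted p = 0.141) or 21 (0.0677) and without H2A.Z.1 WT mouse 10 (0.0766), 30 (0.0558) or 46 (0.0953), and with all genes that had a count (0.0622). With H2A.Z.1 KA the log2 fold change was 0.11 in both sexes (adjusted p = 0.297 in females and 0.299 in males), and with H2A.Z.1 KQ it was 0.14 in females and 0.15 in males (adjusted p = 0.194 and 0.0744). The male H2A.Z.1 KQ value passed without H2A.Z.1 KQ mouse 8 (adjusted p = 0.0473) and with DESeq2 (0.0391), and every H2A.Z.1 KQ male lay above the H2A.Z KO males, as for 5.15% of all genes.

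Anp32e passed the test against H2A.Z KO in none of the replacement groups. Against H2A.Z KO its log2 fold change was between -0.10 and -0.02 over the 6 comparisons, with 95% intervals that reached no lower than -0.22 and no higher than 0.10. The lowest value was with H2A.Z.1 KA in males (adjusted p = 0.254), where the 176 to 183 CPM of H2A.Z.1 KA mice lay below the 188 to 199 CPM of H2A.Z KO mice, as for 9.7% of all genes. The other 5 comparisons overlapped. Ruvbl1 had positive log2 fold changes between 0.09 and 0.18 over H2A.Z KO in all 6, none past the threshold (adjusted p between 0.115 and 0.535). The largest, 0.18 (95% interval 0.02 to 0.34), was with H2A.Z.1 KQ in males.

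**Figure D3:**
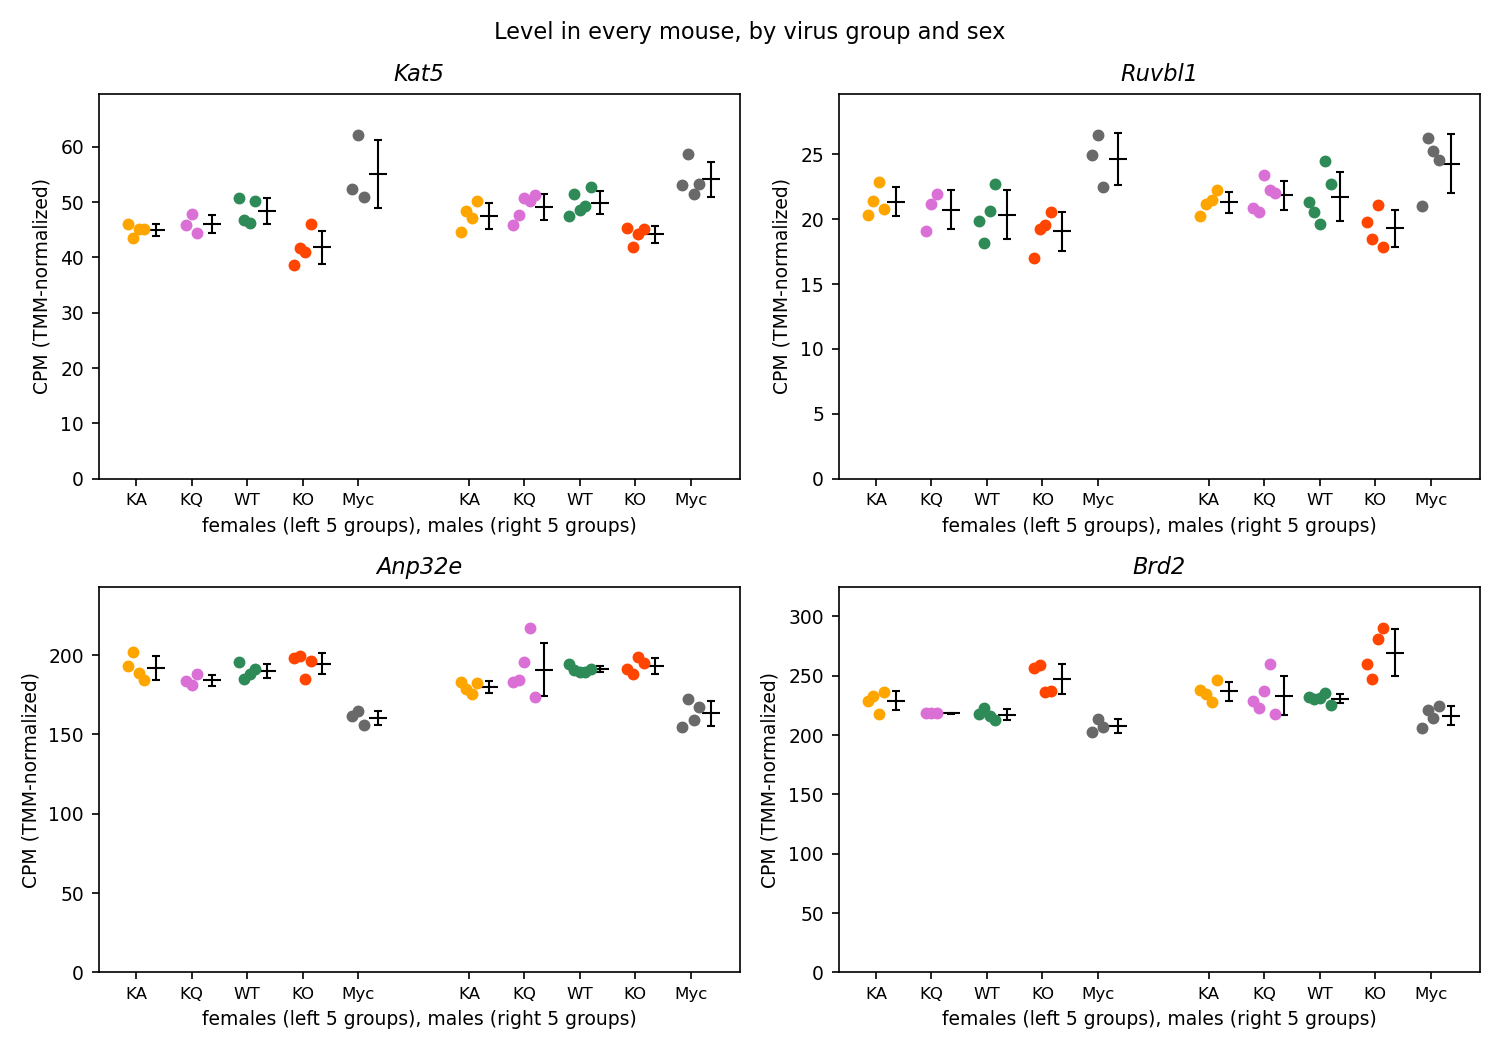
CPM of Kat5, Ruvbl1, Anp32e and Brd2 (vertical axes, starting at 0) in every mouse (points) of the 5 virus groups, females on the left and males on the right of each panel; black bars give the mean and SD. Anp32e is above its Myc level in every other group, while Brd2 in H2A.Z.1 WT mice lies below every H2A.Z KO mouse of the same sex.

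Replacement groups were then compared with Myc, to see what was still different from mice without the deletion. These comparisons use the same Myc libraries as the deletion comparison, and only the Myc mice received no Cre virus. Anp32e was higher in 4 of the 6, which was the most for any member. In fits on the compared groups alone, of the calls over Myc only that of Anp32e with H2A.Z.1 WT in males held. With H2A.Z.1 WT, 1 member was higher and 1 lower in females, where 5.87% of all genes were higher and 3.52% lower, and 1 was higher in males (3.66%). The female count became 3 with DESeq2 and with filtering by expression. With H2A.Z.1 KA, 1 was higher and 1 lower in females (4.42% and 3.23% of all genes), and in males 0 were called in edgeR (7.89% of all genes), 4 at an unadjusted p under 0.05 and 2 by DESeq2. With H2A.Z.1 KQ, 1 was lower in females (2.08%) and 1 was higher in males (3.48%). Percentages here belong to the edgeR calls at an adjusted p under 0.05. For the unadjusted, DESeq2 and filtered counts no share of all genes is given, so those counts stand without a background.

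For Anp32e, the 3 groups had 184 to 202 CPM in H2A.Z.1 KA females, 181 to 188 CPM in H2A.Z.1 KQ females and 185 to 196 CPM in H2A.Z.1 WT females, all above the 156 to 164 CPM of Myc females, as for 10.4%, 13.5% and 12.2% of all genes with KA, KQ and WT. In males the ranges were 176 to 183 CPM in H2A.Z.1 KA, 174 to 217 CPM in H2A.Z.1 KQ and 189 to 194 CPM in H2A.Z.1 WT, all above the 155 to 172 CPM of Myc, as for 9.04%, 5.37% and 7.1% of all genes. Over Myc the log2 fold change in females was 0.26 with H2A.Z.1 KA (adjusted p = 0.00943), 0.20 with H2A.Z.1 KQ (0.073) and 0.24 with H2A.Z.1 WT (0.0142). In males it was 0.14 with H2A.Z.1 KA (adjusted p = 0.146), 0.22 with H2A.Z.1 KQ (0.0116) and 0.23 with H2A.Z.1 WT (0.0101). DESeq2 called Anp32e with H2A.Z.1 KA in males (adjusted p = 0.0283) and with H2A.Z.1 KQ in females (0.0141), and the H2A.Z.1 KQ value passed in edgeR with sample-number ranges as a covariate (0.0457). These values lie beside 0.28 and 0.24 for H2A.Z KO over Myc in females and males. In females the H2A.Z.1 KA call was lost without H2A.Z.1 KA mouse 16 (adjusted p = 0.0508) or Myc mouse 32 (0.0576), and the H2A.Z.1 WT call without Myc mouse 32 (0.0692). In males both calls were lost without Myc mouse 1 (adjusted p = 0.0562 for H2A.Z.1 WT and 0.063 for H2A.Z.1 KQ).

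Kat5 had 46.0, 43.5, 45.2 and 45.1 CPM in H2A.Z.1 KA females and 45.9, 47.8 and 44.5 CPM in H2A.Z.1 KQ females, all below the 3 Myc females, as for 8.26% and 8.94% of all genes. Relative to Myc, Kat5 had a log2 fold change of -0.29 with H2A.Z.1 KA (SE 0.07, adjusted p = 0.00745) and of -0.26 with H2A.Z.1 KQ (SE 0.07, adjusted p = 0.0347). With H2A.Z.1 WT it was -0.19 (adjusted p = 0.0834) in females, past the threshold with DESeq2 (0.037) and with filtering by expression (0.0438). In males it was -0.19, -0.14 and -0.12 with H2A.Z.1 KA, KQ and WT (adjusted p = 0.0674, 0.197 and 0.305). The male H2A.Z.1 KA value passed with DESeq2 (adjusted p = 0.0332), with filtering by expression (0.0402), with sample-number ranges as a covariate (0.0437) and on the compared groups alone (0.0466). H2A.Z.1 WT females (9.37% of all genes), H2A.Z.1 KA males (8.14%) and H2A.Z.1 KQ males (3.68%) also lay wholly below the Myc mice of their sex at Kat5. Myc mouse 31 had the highest Kat5 of all mice, and without it the female values were -0.20 for H2A.Z.1 KA (adjusted p = 0.127) and -0.16 for H2A.Z.1 KQ (adjusted p = 0.271). The H2A.Z.1 KQ call was also lost without H2A.Z.1 KQ mouse 17 (adjusted p = 0.181) or 38 (0.0953) and without the mice above 1000 CPM of Ttr (0.175).

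Ruvbl1 had 19.9, 18.2, 20.6 and 22.7 CPM in H2A.Z.1 WT females, against 24.9, 26.5 and 22.5 CPM in Myc females, so that 1 H2A.Z.1 WT mouse lay just inside the Myc range. The log2 fold change was -0.28 (SE 0.09, adjusted p = 0.0455). This call was lost without Myc mouse 11 (adjusted p = 0.106) or 31 (0.21), without H2A.Z.1 WT mouse 19 (0.101), 20 (0.173) or 39 (0.0672), without the mice above 1000 CPM of Ttr (0.181), and with all genes that had a count (0.0676). The other 5 values of Ruvbl1 over Myc were between -0.25 and -0.15, none past the threshold. Brd2 did not pass over Myc in any replacement group, although all 6 log2 fold changes were positive, between 0.07 and 0.14, with 95% intervals that reached 0.27. The values were highest with H2A.Z.1 KA, 0.14 (95% interval 0.01 to 0.27, unadjusted p = 0.038, adjusted p = 0.191) in females and 0.13 (0.01 to 0.25, unadjusted p = 0.0381, adjusted p = 0.197) in males. At Brd2 every mouse lay above the Myc mice of its sex in 4 of the 6 groups, H2A.Z.1 KA females and males, H2A.Z.1 KQ females and H2A.Z.1 WT males, as for 10.4%, 9.04%, 13.5% and 7.1% of all genes.

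**Figure D4:**
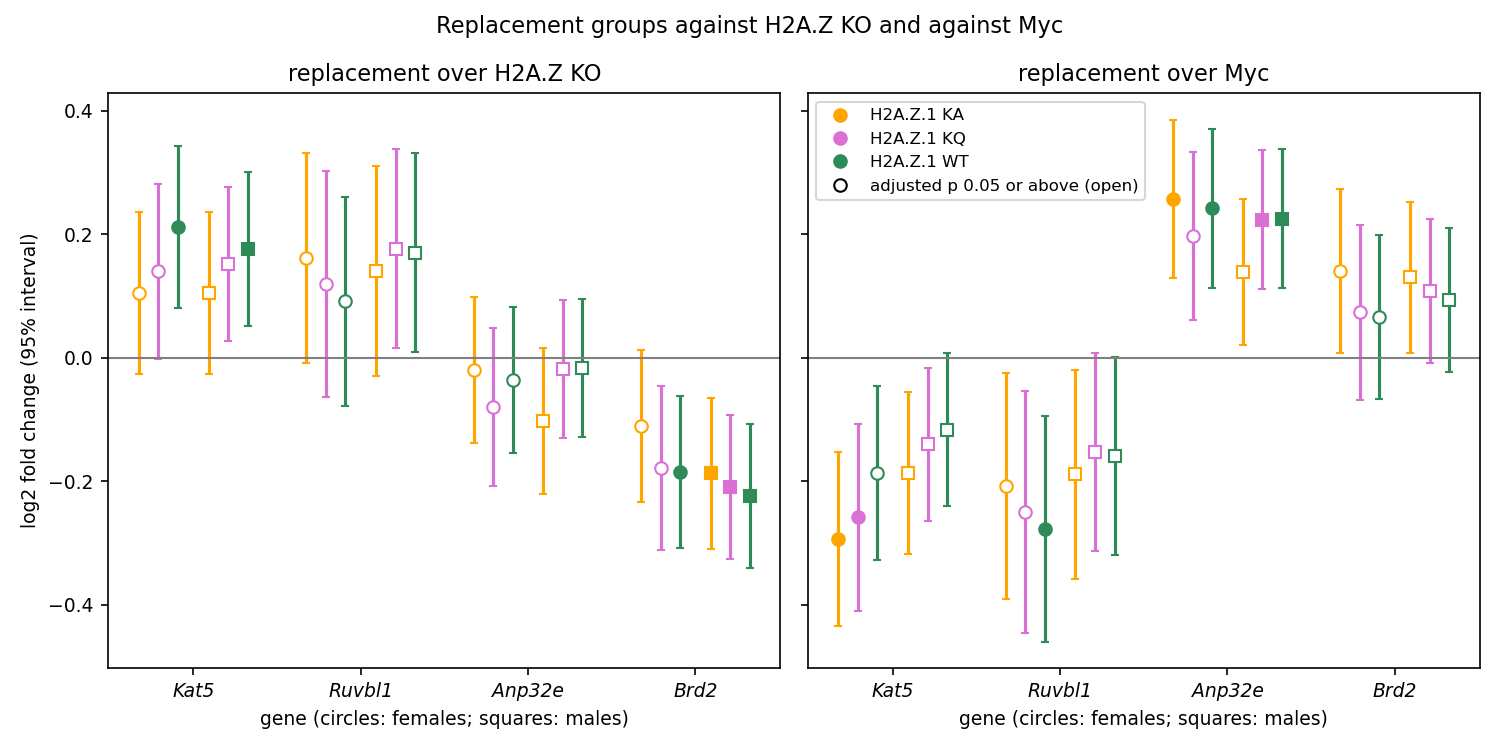
Log2 fold changes with 95% intervals (vertical axis) of H2A.Z.1 KA, KQ and WT mice over H2A.Z KO (left) and over Myc (right) for 4 genes (horizontal axis), females as circles and males as squares; filled symbols passed an adjusted p of 0.05. Brd2 lies below 0 on the left, and on the right all values of Brd2 and Anp32e lie above 0, with filled symbols for Anp32e and none for Brd2.

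The lysine mutants were compared with each other and with H2A.Z.1 WT, since the study asked what acetylation of H2A.Z.1 does. In the 6 comparisons 0 of 10 members were called in edgeR, where 0% of all genes were called, and 0 by DESeq2. Over these tests, 1 had an unadjusted p under 0.05: Ruvbl2 for H2A.Z.1 KQ over H2A.Z.1 WT in males, with a log2 fold change of -0.21 (95% interval -0.41 to -0.01, group means 20.7 ± 2.91 and 24.0 ± 2.17 CPM, SD, n = 5 each). For Kat5, H2A.Z.1 KA over H2A.Z.1 KQ was -0.03 (95% interval -0.18 to 0.11) in females and -0.05 (-0.17 to 0.08) in males. For Anp32e it was 0.06 (-0.07 to 0.19) in females and -0.08 (-0.20 to 0.03) in males. For Brd2 it was 0.07 (-0.07 to 0.20) in females and 0.02 (-0.09 to 0.14) in males. Differences larger than these bounds fall outside the intervals, and smaller ones could not be seen with 3 to 5 mice per group.

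The genes whose log2 CPM followed Brd2 and Kat5 most closely over the 40 mice were sought among 10461 genes with a mean of at least 10 CPM. For Brd2 they were Gm14681 (Pearson r = 0.86), Dek, which encodes a chromatin protein (r = 0.84), and Gm12712 (r = 0.83). For Kat5 they were Rnf220, which encodes a ubiquitin ligase (r = 0.90), Nicn1 (r = 0.89) and Morn4 (r = 0.89). The mice share their virus groups, so these values describe the group differences as well as the mice within them. Dek had log2 fold changes of 0.48 and 0.57 for H2A.Z KO over Myc in females and males, and Rnf220 had -0.65 and -0.51.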

How the data were processed

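Reads were mapped by the authors with Rsubread (paired ends, GRCm39) and counted by featureCounts; whether counting used strand, and the annotation release, are not given in the sources used here. The submitters' processing notes name FastQC 0.11.9 and DESeq2 1.38.3. The deposited table holds raw counts per gene, and a second, normalized table was not used. As in the study, genes with a count sum under 20 over all mice were removed. edgeR 4.0.16 in R 4.3.3 (TMM, robust quasi-likelihood F-test) was fitted once to all 40 mice with a mean per sex and virus group, and 22 comparisons were drawn from it. A gene was called at a Benjamini-Hochberg adjusted p under 0.05 over all 28449 genes, at any fold. CPM were scaled by TMM. Intervals are 95% confidence intervals of the log2 fold change, with an SE taken from the F-test that rests on the spread between mice. Mean ± SD refer to mice. The labels do not say whether mice were littermates or which were processed together. No pair of mice of 1 group agreed within sampling noise (smallest chi-square per degree of freedom 7.52). Loci and exon overlaps come from GENCODE M39 on GRCm39, which may differ from the annotation counted. The 10 members are all named, and list genes by the smallest p averaged over the sexes, up to 4 a list, with Brd3 and Anp32b added for their kinship to members. The members and lists were chosen with earlier results of these data known. Alternatives were DESeq2 1.42.0, its size factors, other low-count filters, no robust estimation, sample-number ranges as a covariate, fits on the compared groups alone, each mouse left out, and the mice above 1000 CPM of Ttr left out. Steps were tested on simulated data.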

Additional observations from a re-analysis of the deposited data

Results flagged for a closer look

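In 3 of 80 groups of 4 or 5 mice, 1 mouse stood apart from the others by Dixon's criterion, and chance alone gives about 1 in 20. Srcap was 157.9 CPM in H2A.Z.1 WT female mouse 39, against 148.5 to 149.9 CPM in the other 3 mice of that group. Ruvbl2 was 22.0 CPM in H2A.Z.1 KA male mouse 5, against 24.0 CPM in the other 3. Ruvbl2 was also 24.7 CPM in Myc male mouse 22, against 20.2 to 20.7 CPM in the other 3. Leaving out any of these mice changed no call of its gene.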

How the results depend on the processing

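In the deletion comparison, Kat5, Ruvbl1 and Anp32e kept their direction and their call in both sexes under every alternative run, and Brd2 lost its call only in females in the fit on the compared groups alone. The number of members called in H2A.Z KO over Myc was 4 to 5 in females and 4 to 5 in males over fits without 1 mouse. In males Srcap, at -0.01 on the log2 scale, turned to 0.0104 with DESeq2, 0.0112 with DESeq2 size factors, 0.000543 with sample-number ranges and 0.0191 on the compared groups alone, where Znhit1 turned to 0.00632. Without 1 mouse, Srcap lay between -0.031 and 0.0991 in females and -0.0893 and 0.0692 in males, Znhit1 between -0.153 and 0.0498 in females and -0.065 and 0.0491 in males, and Pwwp2a in females between -0.111 and 0.104.

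The replacement counts depended on the fit. No share of all genes is given for the alternative fits, so these counts stand without a background. On the compared groups alone the count was 0 in H2A.Z.1 WT over H2A.Z KO in females and males, in H2A.Z.1 KA and KQ over H2A.Z KO in males, in H2A.Z.1 WT, KA and KQ over Myc in females and in H2A.Z.1 KQ over Myc in males, and 1 in H2A.Z.1 KA over Myc in males; fewer mice enter these fits. DESeq2 gave 1 for H2A.Z.1 KQ over H2A.Z KO in females, and 2 for that comparison in males, for H2A.Z.1 KA over Myc in males and for H2A.Z.1 KQ over Myc in females. DESeq2 size factors and no robust estimation gave 1 for H2A.Z.1 KQ over H2A.Z KO in females, and filtering by expression and the sample-number ranges gave 1 for it and 1 for H2A.Z.1 KA over Myc in males. The sample-number ranges gave 2 for H2A.Z.1 KQ over Myc in both sexes. With all genes that had a count, H2A.Z.1 WT over H2A.Z KO in males and H2A.Z.1 WT over Myc in females gave 1, and H2A.Z.1 KA over H2A.Z KO in males gave 0. Without the females above 1000 CPM of Ttr, an alternative chosen with earlier results known and applied to the lists of other genes only after seeing the data, H2A.Z.1 WT over H2A.Z KO gave 0, H2A.Z.1 WT over Myc 1 and H2A.Z.1 KQ over Myc 0. Without 1 mouse, the counts over H2A.Z KO were 0 to 2 and 1 to 2 with H2A.Z.1 WT in females and males, 0 and 0 to 1 with KA, and 0 to 1 and 1 to 2 with KQ. Over Myc they were 1 to 2 and 0 to 1 with H2A.Z.1 WT, 1 to 2 and 0 with KA, and 0 to 1 and 0 to 2 with KQ. The causes were not tested. Of the 187 other pairs of member and comparison, 20 of 2961 alternative values passed the threshold, none with the other sign. No paired analysis was possible because every mouse has its own number. With 3 to 5 mice a group, the widest interval of a member in the deletion comparison was -0.02 to 0.48 on the log2 scale, for Ruvbl2 in females. The bound farthest from 0 was -0.55, for Ruvbl1 in females.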
